A study of Mus musculus with 4 samples.

Results

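The genes described here, 10 of the 30907 features counted in each library, move chloride, sodium and water across the surface of the airway or control the cells that do so. They were taken by their symbols: Cftr, Scnn1a, Scnn1b, Scnn1g, Slc12a2, Foxi1, Atp6v1c2, Aqp3, Aqp4 and Aqp5. All 10 were found once in each feature list. The question put to them was in which epithelial cells of regenerated mouse tracheas each gene was detected, and how donor-derived cells compared with the endogenous cells beside them.

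The data came from 10x Chromium single-cell RNA sequencing of the tracheas of 2 adult wild type mice, recipients of a cell transplant. Both animals had received 2% polidocanol, a detergent that strips the tracheal lining, followed 5 hours later by 6000000 murine cells delivered into the airway. Each recipient's organ is named below by its graft, as the iBC trachea or the primary BC trachea. The first donor-derived group held GFP+ cells of the recipient of iBCs, basal cells made from embryonic stem cells, at 192 days (strain label 129 X1/S1), and its endogenous group held the GFP- cells of that trachea. The second donor-derived group held GFP+ cells of the recipient of primary basal cells (primary BCs) at 69 days (strain label C57BL/6), again with the GFP- cells of the same trachea as the endogenous group. All 4 groups passed a Calcein Blue+ live gate and each was 1 library from 1 animal, so no value has a replicate and no test between conditions was possible. Donor cell kind, days, strain label and animal differed together between the recipients and cannot be told apart. Both libraries of a recipient carry the same strain label, and whether it names the host or the donor strain is not stated. A control trachea named in the protocol was not analysed here. Intervals in what follows are exact 95% intervals (Poisson for counts and ratios, Clopper-Pearson for shares) and cover counting error only; where a count is 0, the share it allows is given as 3 counts of the total. UMIs of the same cell are not independent of each other.

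Fluid on the airway surface is set by chloride secretion and sodium absorption, with water following. Chloride leaves the cell through CFTR, the channel mutated in cystic fibrosis, after entering from the basolateral side on NKCC1, the product of Slc12a2. Sodium enters through the epithelial sodium channel ENaC, built of subunits encoded by Scnn1a, Scnn1b and Scnn1g. Pulmonary ionocytes are rare epithelial cells that depend on the forkhead factor Foxi1, carry V-ATPase subunits such as Atp6v1c2 and are known for high Cftr in mouse and human airways. Aquaporins 3, 4 and 5 are water channels, with Aqp3 also passing glycerol, Aqp3 and Aqp4 lying basolaterally and Aqp5 apically in airway epithelium.

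Foxi1, Cftr and Atp6v1c2 share the ionocyte as a known site of expression, and the 250 bases before their RefSeq starts are shown to let the forkhead core be seen in place. The sequences are RefSeq's on GRCm38.p6, read 5′ to 3′ on the strand of the gene: Foxi1 at chr11:34208090-34208339 (minus strand), Cftr at chr6:18170437-18170686 (plus strand) and Atp6v1c2 at chr12:17324731-17324980 (minus strand). Capitals mark TGTTT or its reverse complement AAACA, searched on both strands.
Foxi1: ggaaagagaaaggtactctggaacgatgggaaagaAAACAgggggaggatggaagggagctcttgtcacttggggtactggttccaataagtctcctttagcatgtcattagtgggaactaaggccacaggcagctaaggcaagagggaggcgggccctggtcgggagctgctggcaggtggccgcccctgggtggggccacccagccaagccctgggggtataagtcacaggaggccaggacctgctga
Cftr: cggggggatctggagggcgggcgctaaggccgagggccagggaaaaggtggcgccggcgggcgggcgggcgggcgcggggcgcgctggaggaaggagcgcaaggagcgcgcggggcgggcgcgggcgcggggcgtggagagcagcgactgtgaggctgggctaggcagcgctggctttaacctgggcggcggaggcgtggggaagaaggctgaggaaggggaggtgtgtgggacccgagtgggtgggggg
Atp6v1c2: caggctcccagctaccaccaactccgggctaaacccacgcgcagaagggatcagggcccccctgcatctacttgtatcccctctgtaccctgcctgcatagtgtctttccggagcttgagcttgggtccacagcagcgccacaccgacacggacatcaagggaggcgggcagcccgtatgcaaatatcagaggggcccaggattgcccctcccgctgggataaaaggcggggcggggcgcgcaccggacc
Only the Foxi1 window held the core, as AAACA beginning 215 bases before the start. TGTTT or its complement occurred in 46.4% of the 32851 windows of 250 bases in the table, and the longer TGTTTAC or GTAAACA, which overlaps it, in 3.17%. None of the 3 windows held the longer form. The RefSeq start of Atp6v1c2 lies inside the longer GENCODE gene. A match describes letters only, and the table held 7 of the 10 genes (not Scnn1a, Slc12a2 or Aqp4).

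The libraries held 1596 barcodes in the donor-derived and 1891 in the endogenous group of the iBC trachea, and 1876 and 1421 in the donor-derived and endogenous groups of the primary BC trachea. Totals ran from 21504563 to 26625123 UMIs, and 6542 of 6784 barcodes were kept. The EGFP reporter had 65.4 CPM in donor-derived cells, against 0.0917 CPM in endogenous cells, of the iBC trachea. It had 608 and 9.71 CPM in donor-derived and endogenous cells from the primary BC trachea. A barcode sequence was shared by 2 libraries in 2 cases. Cells were placed in classes by marker genes that include none of the 10: a rare class such as ionocyte-like needed 3 of its markers detected, and a common class (basal-like, secretory-like, ciliated-like, hillock-like) needed a marker score of at least 0.3 and a lead of 0.1 over the next class. Such classes are ranges of a score and not types. From 14.6% to 21.6% of the kept cells of a library lay within 0.05 of a limit, and 238 to 340 cells per library met no gate and are called ungated. Basal-like cells numbered 535 and 564 in the donor-derived and endogenous groups of the iBC trachea and 826 and 368 in the same groups of the primary BC trachea. Secretory-like cells numbered 457, 606, 411 and 378 in the same order, and ciliated-like cells 262, 356, 154 and 190. The median secretory score was 0.173 in donor-derived and 0.285 in endogenous ciliated-like cells of the iBC trachea, and 0.13 and 0.265 in the basal-like cells. The summed level of the 9 secretory markers in those ciliated-like cells was 20602 CPM in donor-derived cells, against 15640 CPM in endogenous cells, and that of the 7 basal markers was 64.5 and 12 CPM.

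Cftr (ENSMUSG00000041301, GRCm38 chromosome 6, 18170687 to 18322768, plus strand, protein coding) was held by different cells in the 2 recipients. For the primary BC trachea, 74.2% (65.7 to 81.5) of the 128 Cftr UMIs of donor-derived cells lay in 11 ionocyte-like cells, and 85.5% (77.5 to 91.5) of the 110 Cftr UMIs of endogenous cells lay in 9 ionocyte-like cells. In the iBC trachea the ionocyte-like share was 1.91% (0.524 to 4.83) of 209 UMIs in donor-derived cells, from 1 cell with 4 UMIs. No endogenous cell of that animal passed the ionocyte gate (0 of 1807 cells, which allows a share of up to 0.166%), so none of its 46 Cftr UMIs fell there. An antisense transcript (Gm15592) and a processed pseudogene on the strand of Cftr (Gm15595) overlap the locus. Reads of the antisense transcript could be shared with Cftr if counting ignored strand, and those of the pseudogene in either case. Gm15592 had 0 UMIs in every class of every library.

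**Figure D1:**
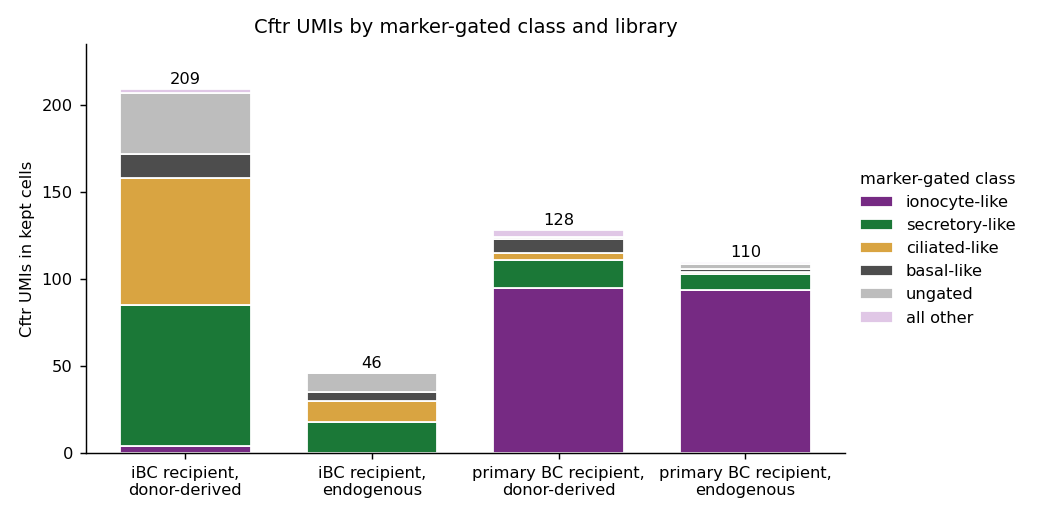
Cftr UMIs in kept cells (vertical axis) for each library (horizontal axis, donor-derived left of endogenous), stacked by marker-gated class, with the library total above each bar. Ionocyte-like cells fill most of the bars of the primary BC trachea (74.2% and 85.5%) and little or nothing of the bars of the iBC trachea, where secretory-like, ciliated-like and ungated cells hold most UMIs.

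The rest of the Cftr signal of the iBC trachea was spread thinly over common cells. Secretory-like cells held 38.8% of Cftr UMIs in donor-derived and 39.1% in endogenous cells of the iBC trachea, and 12.5% and 8.18% in the cells of the primary BC trachea. Ciliated-like cells held 34.9% and 26.1% in the iBC trachea and 3.13% and 0.909% in the primary BC trachea. Basal-like cells held 6.70% and 10.9%, then 6.25% and 1.82%, and ungated cells 16.7% and 23.9%, then 0.781% and 2.73%. The concentration per cell differed in the same way. A Cftr UMI was found in 148 donor-derived and 33 endogenous cells of the iBC trachea, and in 40 and 25 cells of the primary BC trachea, where single cells reached 22 and 16 UMIs against 7 and 4 in the iBC trachea. The 10 cells with most Cftr held 19.1% of it in donor-derived and 50% in endogenous cells of the iBC trachea, against 75.8% and 86.4% in the primary BC trachea. The 50% rests on only 46 UMIs in 33 cells. Cells with 5 or more Cftr UMIs numbered 2 donor-derived and 0 endogenous in the iBC trachea, and 9 and 9 in the primary BC trachea.

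Taken per cell class, Cftr stood highest in donor-derived ciliated-like and secretory-like cells of the iBC trachea among the common classes of the 4 libraries. In ciliated-like cells it had 21.2 CPM (73 UMIs) in donor-derived cells, against 2.83 CPM (12 UMIs) in endogenous cells of that recipient, 7.50-fold higher (4.05 to 15.2). The secretory and basal marker sums of these cells, given above, were higher in donor-derived cells too, and their part in the ciliated-like values of Cftr, Slc12a2 and Aqp5 was not tested. Secretory-like cells had 10.4 CPM (81 UMIs) and 1.87 CPM (18 UMIs), 5.55-fold higher (3.30 to 9.84). Basal-like cells had 2.23 CPM in donor-derived cells, against 1.10 CPM in endogenous cells, with 14 and 5 UMIs and an interval of the ratio that includes 1. After primary BC transplantation the ciliated-like values were 1.53 and 0.271 CPM, the secretory-like values 1.91 and 1.02 CPM and the basal-like values 0.863 and 0.424 CPM for donor-derived and endogenous cells, all from 16 UMIs or fewer. Their intervals all include 1. Outside ionocyte-like cells Cftr came to 9.67 CPM in donor-derived cells, against 2.21 CPM in endogenous cells of the iBC trachea, and to 1.28 and 0.677 CPM in the cells of the primary BC trachea. Within donor-derived cells of the iBC trachea the order was ciliated-like above secretory-like above basal-like, with intervals that did not overlap, and in the other libraries the neighbours in the order overlapped.

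Detection per cell gave the same picture at lower resolution. A Cftr UMI was present in 17.2% (12.8 to 22.3) of donor-derived against 2.25% (0.975 to 4.38) of endogenous ciliated-like cells of the iBC trachea, at median depths of 11851 and 11894 UMIs. The shares in secretory-like cells were 14.4% (11.3 to 18) and 2.15% (1.15 to 3.64) at 16318 and 15648.5 UMIs. After every cell was thinned to 4000 UMIs, which left out 2 donor-derived and 5 endogenous ciliated-like cells and 1 and 10 secretory-like cells, the ciliated-like shares were 4.62% (2.41 to 7.92) and 1.14% (0.311 to 2.89), and the secretory-like shares 3.51% (2.02 to 5.64) and 0.671% (0.183 to 1.71). As a guide to free RNA, immune-like cells, which should lack Cftr, had a UMI in 0 of 27 endogenous cells of the iBC trachea (a share of up to 11.1%) and 0 of 74 endogenous cells from the primary BC trachea (up to 4.05%), at median depths of 9301 and 12513 UMIs. Donor-derived libraries held 2 such cells in the iBC trachea and 7 in the primary BC trachea, with median basal scores of 0.516 and 0.578, so they give no such guide. Among donor-derived cells of the iBC trachea itself, basal-like cells had Cftr in 2.62% (1.44 to 4.35) at 9619 UMIs. Shares at or below such a level in the other libraries are not read as expression.

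**Figure D2:**
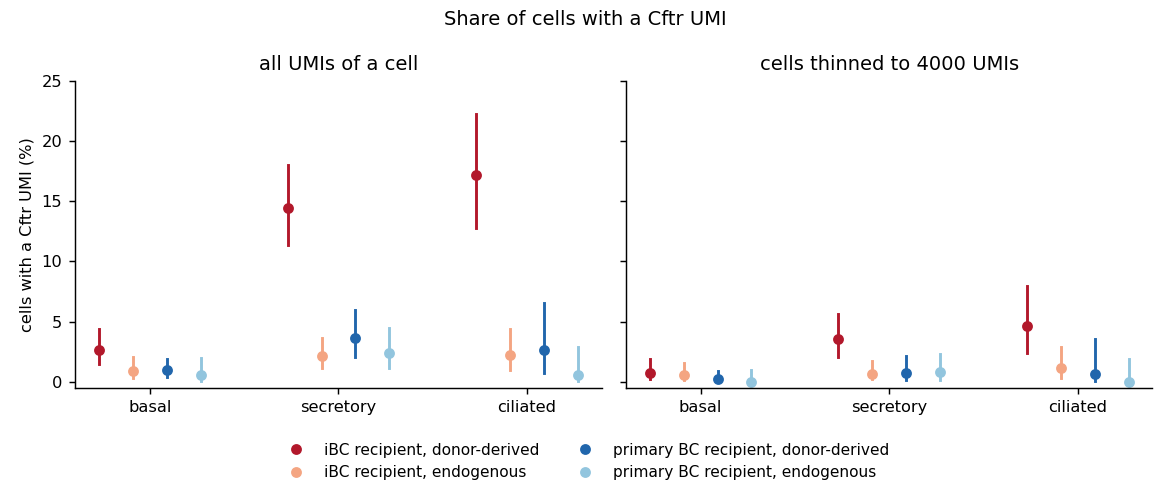
Percentage of cells with a Cftr UMI (vertical axis) by class and library, with all UMIs of a cell (left) and after thinning each cell to 4000 UMIs (right); bars are exact 95% binomial intervals for counting error only. Donor-derived secretory-like and ciliated-like cells of the iBC trachea stand at 14.4% and 17.2% before thinning and at 3.51% and 4.62% after it.

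Ionocyte marks in these cells with Cftr differed by class. Of the 45 donor-derived ciliated-like cells of the iBC trachea with a Cftr UMI, 2 had any of the 6 ionocyte markers and 0 had Foxi1, and of the 66 secretory-like cells 1 had a marker and 0 had Foxi1. Of the 14 basal-like cells with Cftr, 6 had a marker, 1 of them with 2 markers, and 0 had Foxi1. The 6 markers together came to 14.6 CPM in the basal-like sum of donor-derived cells, against 17.2 CPM in that of endogenous cells. They came to 1.45 CPM in the ciliated-like and 1.03 CPM in the secretory-like sum of the donor-derived library, against 0.942 and 2.91 CPM in the endogenous sums. Of the 92 marker UMIs in all donor-derived basal-like cells, 74 were Moxd1, 15 Atp6v0d2, 1 Stap1 and 0 Ascl3. Moxd1 had 0 UMIs in the ciliated-like and secretory-like sums of that library. The class difference in markers thus came mostly from Moxd1. In donor-derived ionocyte-like cells of the primary BC trachea the same 6 markers came to 6149 CPM. No donor-derived ciliated-like cell of the iBC trachea had more than 6 Cftr UMIs and no secretory-like cell more than 3. Slc12a2 was detected in 23 of the 45 and in 65 of the 66.

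Foxi1 (ENSMUSG00000047861, chromosome 11, 34204338 to 34208089, minus strand, protein coding), the forkhead factor of ionocytes, was detected in few cells. It had 6 UMIs in donor-derived and 27 in endogenous cells of the iBC trachea, and 87 and 141 in the cells of the primary BC trachea. No basal-like or ciliated-like cell of any library had a Foxi1 UMI, and among secretory-like cells 1 UMI was found, in a donor-derived cell of the primary BC trachea. Cells with at least 2 Foxi1 UMIs numbered 1 donor-derived and 2 endogenous in the iBC trachea, and 11 and 11 in the primary BC trachea, and Cftr was detected in 1 and 0 of them, then in 9 and 9.

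The single cells behind those counts in the iBC trachea can be listed. Among donor-derived cells, 1 cell had 6 Foxi1, 7 Cftr and 12 Slc12a2 UMIs with 2 ionocyte markers (Stap1 and Coch), and stayed ungated because the gate asked for 3. The 1 donor-derived cell that passed had 4 Cftr, 25 Slc12a2 and 2 Atp6v1c2 UMIs but 0 Foxi1, with Ascl3, Stap1, Coch and Atp6v0d2 detected. With the gate at 2 markers the ionocyte-like share of Cftr UMIs in that library was 5.74%. In the endogenous cells of that animal, 22 of the 27 Foxi1 UMIs lay in 1 tuft-like cell with 6 tuft markers and 0 Cftr, and the other 5 in 1 ungated cell with 2 tuft markers and 0 Cftr. The primary BC trachea also had 2 endogenous tuft-like cells with at least 2 Foxi1 UMIs, at 4 and 2 UMIs, both without Cftr. Neither had tuft marks alone. The first had 3 tuft markers, the ionocyte markers Ascl3 and Stap1 and 16 Slc12a2 UMIs. The second had 4 tuft markers, 31984 UMIs in all, a secretory score of 0.541 and 134 Aqp5 UMIs. Whether these are single tuft cells was not tested. Tuft cells are rare chemosensory cells of the same epithelium.

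Where primary BCs had been given, the ionocyte-like cells could be seen one by one. Donor-derived cells had 0 to 22 Cftr UMIs with a median of 9, and endogenous cells 6 to 16 with a median of 10. Slc12a2 ran from 0 to 68 UMIs (median 31) in donor-derived and from 30 to 77 (median 39) in endogenous cells, and Foxi1 from 2 to 27 (median 6) and from 4 to 24 (median 17). The ranges overlapped for each of these genes. The donor-derived cells were 11 and the endogenous cells 9, with median totals of 11804 and 13018 UMIs, and each group of cells comes from 1 library.

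The 2 donor-derived ionocyte-like cells without Cftr stood apart in other ways. The first had 37184 UMIs, the most of any ionocyte-like cell, a secretory score of 0.82, 23 Aqp5 UMIs and 19 Aqp4 UMIs. The second had 18685 UMIs, a ciliated score of 0.879 and 0 Slc12a2 UMIs. The other 18 ionocyte-like cells of that animal had secretory scores of at most 0.213. Together the 2 cells put the secretory markers at 71820 CPM in the donor-derived ionocyte-like sum, against 3700 CPM in the endogenous sum, and without them the donor-derived value was 3311 CPM. Scrublet, a doublet caller, had called neither of them. Whether they are pairs of cells was not tested further. Ratios in ionocyte-like cells are therefore given with and without these cells, a choice made after seeing the data.

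With all cells, Foxi1 had 582.4 CPM in donor-derived cells, against 1142 CPM in endogenous ionocyte-like cells, 1.96-fold lower (1.48 to 2.6), and without the 2 cells 882 CPM against 1142 CPM, with an interval that includes 1. Cftr had 643 and 807 CPM with all cells, and 1035 and 807 CPM without them, and neither interval excludes 1. Slc12a2 had 2363 and 3391 CPM with all cells, 1.43-fold lower (1.24 to 1.66), and 3758 and 3391 CPM without them, with an interval that includes 1. The direction of Cftr and Slc12a2 between the groups thus turned with 2 cells. Atp6v1c2 had 440 and 421 CPM with all cells, and 664 and 421 CPM without them, 1.58-fold higher (1.07 to 2.35). Of the aquaporins, Aqp4 had 27 UMIs in donor-derived and 6 in endogenous ionocyte-like cells, Aqp5 had 23 and 2, and Aqp3 had 5 and 2. Without the 2 cells the donor-derived counts were 3 for Aqp4 and 0 for Aqp5 and Aqp3.

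The beta and gamma subunits of ENaC were lower in donor-derived ionocyte-like cells, with intervals that exclude 1, both with and without those cells. Scnn1b had 54.2 CPM (8 UMIs) in donor-derived cells, against 369 CPM (43 UMIs) in endogenous ionocyte-like cells, 6.81-fold lower (3.17 to 16.8), and without the 2 cells 87.1 CPM, 4.24-fold lower (1.97 to 10.4). Scnn1b was detected in 3 of 11 donor-derived and 7 of 9 endogenous cells. Scnn1g had 1 UMI in donor-derived and 14 UMIs in endogenous cells, 6.77 and 120 CPM, with a ratio of 0.0563 (0.00133 to 0.370), and 0.0906 (0.00214 to 0.596) without the 2 cells. Scnn1a, the pore subunit that the others join, had 298 and 223 CPM, with an interval that includes 1 when all cells are used and 1.90-fold higher (1.13 to 3.26) without the 2. All 3 subunits were found together in 1 of 11 donor-derived and 5 of 9 endogenous cells.

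**Figure D3:**
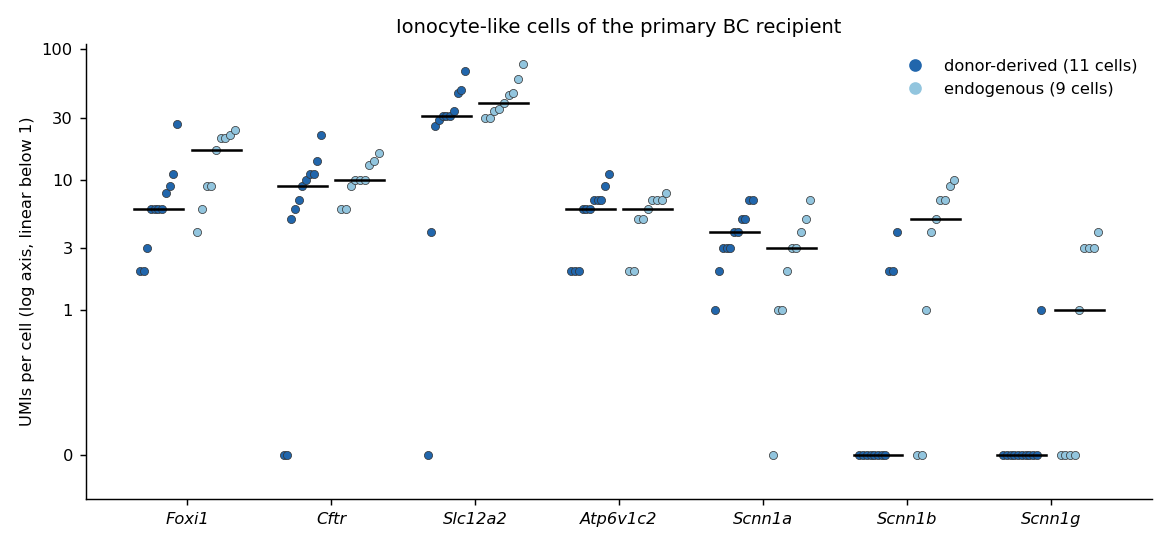
UMIs per cell (vertical axis, logarithmic above 1 and linear below) in the 11 donor-derived (left of each pair) and 9 endogenous ionocyte-like cells of the primary BC trachea; each point is a cell and the black line the median. Cftr is at 0 in 2 donor-derived cells, and Scnn1b is above 0 in 3 donor-derived and 7 endogenous cells.

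Other pathway genes were detected in the same sums. Bsnd, the barttin subunit of ClC-K chloride channels, had 11 UMIs in donor-derived and 17 UMIs in endogenous ionocyte-like cells. The V-ATPase subunit gene Atp6v1b1 had 9 and 11 UMIs, and Atp6v0b had 156 and 167 UMIs. Of the 82 other pathway genes, 3 met the rule for naming with all cells used, and 0 met it without the 2 cells. The share of all genes that met it in ionocyte-like sums is not given here, so these counts have no background beside them. Nr3c2, the mineralocorticoid receptor, had 3 UMIs in donor-derived and 14 in endogenous cells, with a ratio of 0.272 (0.0501 to 0.974) without the 2 cells. Oxsr1, a kinase that activates NKCC1, had 0 and 7 UMIs in both versions. Atp6ap1, a V-ATPase accessory protein, had 11 and 28 UMIs, and 9 and 28 without the 2 cells, a ratio of 0.408 (0.169 to 0.889). With 11 and 9 cells these values describe the 2 libraries only.

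In the common classes, donor-derived and endogenous cells of the same animal were compared by CPM of the class sum. In the iBC trachea these cells fell into different clusters when the 4 libraries were clustered together on the 2000 most variable genes. No adjustment between libraries was made for this clustering. One secretory cluster held 463 donor-derived cells against 1 endogenous cell and another 1 against 508, the main ciliated clusters held 267 against 13 and 3 against 355, and the main basal clusters 682 against 0 and 12 against 500. Cells from the primary BC trachea shared a secretory cluster (295 donor-derived and 275 endogenous cells) and a ciliated one (157 and 189), while their basal clusters held 781 against 40 and 12 against 452. A gene counted as higher or lower when it differed at least 1.5-fold with an interval that excludes 1, and it was measured when one of the sums reached 20 CPM. In summed counts fewer cells with a transcript and less of it per cell cannot be told apart. In the iBC trachea, of 6 measured members in basal-like cells 2 were higher and 2 lower in donor-derived cells, where 10.9% of the 6551 genes measured were higher and 6.11% lower. In secretory-like cells 3 of 6 were higher and 2 lower, against 22.8% and 5.63% of 5187 genes, and in ciliated-like cells 3 of 6 were higher and 1 lower, against 11.2% and 9.28% of 7174 genes. In the primary BC trachea 0 of 6 measured members were higher and 1 lower in basal-like cells, against a background of 1.04% and 1.34%. None of 6 moved in secretory-like cells (background 1.17% higher and 1.09% lower) and none of 4 in ciliated-like cells (1.5% and 1.37%). With 4 to 6 genes measured, 1 gene is a large part of any such share. Over every gene measured, the median log2 ratio of the iBC trachea was 0.13 in basal-like cells, 0.30 in secretory-like cells and 0.09 in ciliated-like cells, which TMM scaling brought to 0.02, 0.04 and -0.01. For the primary BC trachea these medians were 0.01, 0.07 and -0.03. The measured members had medians of -0.38, 0.52 and 0.78 in the same classes of the iBC trachea. Those for the primary BC trachea were -0.31, 0.07 and 0.04. The ciliated-like medians, 0.78 and 0.04, cover different genes and cannot be set side by side. For the iBC trachea, Cftr (21.2 and 2.83 CPM) and Slc12a2 (87.2 and 10.6 CPM) reached 20 CPM there only in the donor-derived sum. Atp6v1c2 (16.3 and 150.1 CPM) did so only in the endogenous sum. That also held for Atp6v1c2 in basal-like cells (7.64 and 65.7 CPM) and in secretory-like cells (6.53 and 69.7 CPM). Aqp3 in secretory-like cells (6.66 and 69.7 CPM) was likewise measured only through its endogenous sum. The counts and medians of the iBC trachea thus include genes that were measured only through the group where they were high. Cftr and Slc12a2 were under 20 CPM in both ciliated-like sums of the primary BC trachea and were left out.

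**Figure D4:**
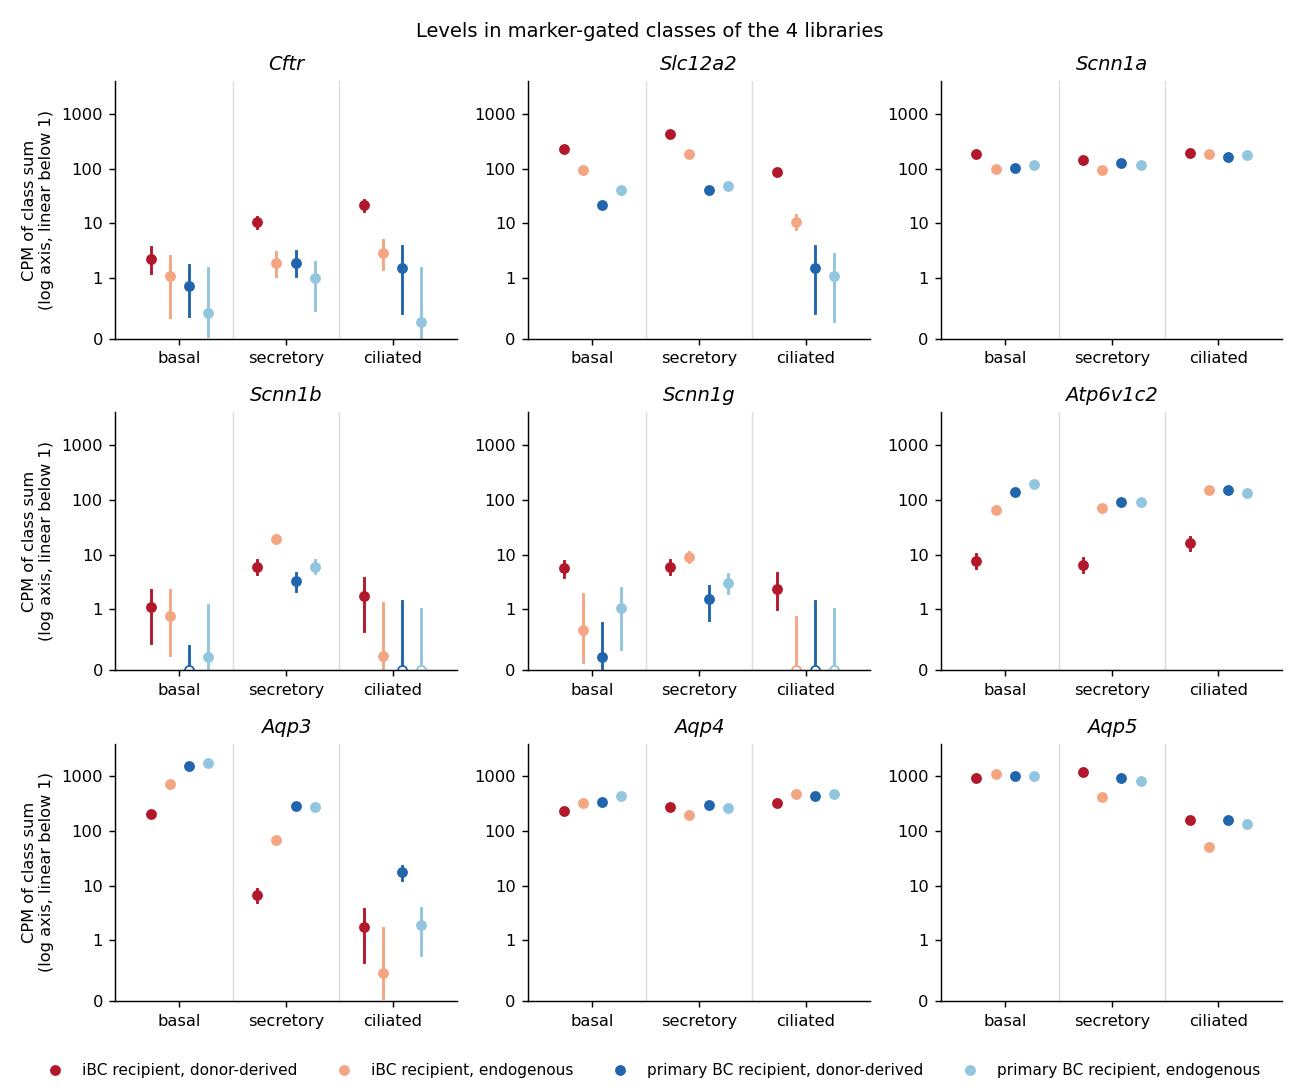
CPM of class sums (vertical axis, logarithmic above 1 and linear below) for 9 of the genes in the basal-like, the secretory-like and the ciliated-like class of each library, donor-derived left of endogenous within a recipient; bars are exact 95% Poisson intervals and open points are sums with 0 UMIs. Slc12a2 lies higher, and Atp6v1c2 lower, in all 3 donor-derived classes of the iBC trachea.

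Slc12a2 (ENSMUSG00000024597, chromosome 18, 57878678 to 57946821, plus strand, protein coding), the chloride-loading cotransporter, was higher in the donor-derived cells of the iBC trachea in all 3 classes. It had 233 CPM in donor-derived cells, against 96.3 CPM in endogenous basal-like cells, 2.42-fold higher (2.17 to 2.70). Secretory-like cells had 438 and 183 CPM, 2.39-fold higher (2.26 to 2.54) and 1.95-fold after TMM scaling. In ciliated-like cells it had 87.2 and 10.6 CPM, 8.22-fold higher (6.00 to 11.5), and was detected in 48.5% of donor-derived against 10.4% of endogenous cells. Thinned to 4000 UMIs, those shares were 19.6% and 3.42%.

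The primary BC trachea had less Slc12a2 in every common class. Its basal-like cells had 21.8 CPM in donor-derived cells, against 39.8 CPM in endogenous cells, 1.83-fold lower (1.49 to 2.24). It was the only member of that animal past the threshold among those at 20 CPM or more; Scnn1b in secretory-like cells and Aqp3 in ciliated-like cells, both under 20 CPM, also differed by 1.5-fold with intervals that exclude 1. Secretory-like cells had 41.4 and 48.3 CPM and ciliated-like cells 1.53 and 1.08 CPM, with 4 UMIs each in the ciliated-like sums. The endogenous cells of the iBC and the primary BC trachea thus stood at 96.3 and 39.8 CPM in basal-like and 183 and 48.3 CPM in secretory-like cells. They differ in strain label, days and animal, which cannot be told apart. Within each library the order was secretory-like above basal-like above ciliated-like, except that immune-like cells came between basal-like and ciliated-like in the endogenous cells from the primary BC trachea. The intervals of secretory-like and basal-like cells overlapped only in that library.

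Scnn1a (ENSMUSG00000030340, chromosome 6, 125320659 to 125344943, plus strand, protein coding), encoding the alpha subunit, was found in all common classes. It had 182 CPM in donor-derived cells, against 100.1 CPM in endogenous basal-like cells of the iBC trachea, 1.82-fold higher (1.63 to 2.04), and 142 and 94.6 CPM in secretory-like cells, 1.51-fold higher (1.38 to 1.64). The secretory-like call did not survive TMM scaling, at 1.22-fold, and the basal-like call was lost when classes were taken from clusters. Ciliated-like cells had 190 and 189 CPM. After primary BC transplantation the values were 103 and 115 CPM in basal-like, 129 and 118 CPM in secretory-like and 160 and 174 CPM in ciliated-like cells, all within 1.12-fold.

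Scnn1b and Scnn1g, the beta and gamma subunits that raise channel activity at the membrane, were sparse in every common class. Scnn1b (ENSMUSG00000030873, chromosome 7, 121865038 to 121918514, plus strand, protein coding) had 6.02 CPM in donor-derived cells, against 19.4 CPM in endogenous secretory-like cells of the iBC trachea, 3.22-fold lower (2.33 to 4.54). Where primary BCs had been given, it had 3.22 and 6.01 CPM, 1.87-fold lower (1.15 to 3.09). Both recipients thus gave fewer Scnn1b UMIs for their depth in donor-derived secretory-like cells, at levels under the 20 CPM needed to be counted as measured. In endogenous cells of the primary BC trachea, the intervals of secretory-like and immune-like cells overlapped for this gene. In basal-like and ciliated-like cells Scnn1b had at most 7 UMIs in any sum. Cog7 lies on the other strand and overlaps 39152 bases of Scnn1b, so their reads cannot be told apart if counting ignored strand.

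Scnn1g (ENSMUSG00000000216, chromosome 7, 121734479 to 121768475, plus strand, protein coding) went the other way in basal-like cells of the iBC trachea, with 35 UMIs (5.57 CPM) in donor-derived and 3 UMIs (0.661 CPM) in endogenous cells, a ratio of 8.42 (2.65 to 42.8). In secretory-like cells of that animal it had 6.02 and 9.03 CPM. In ciliated-like cells it had 8 UMIs in donor-derived and 0 UMIs in endogenous cells, with a lower interval bound of 2.11-fold. In the primary BC trachea it had 1.55 and 3.06 CPM in secretory-like cells, from 13 and 27 UMIs. A UMI of all 3 subunits was present in 6 of 457 donor-derived and 25 of 606 endogenous secretory-like cells of the iBC trachea, and in 7 of 411 and 13 of 378 of the primary BC trachea.

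Atp6v1c2 (ENSMUSG00000020566, chromosome 12, 17284721 to 17329359, minus strand, protein coding), a C subunit of the proton pump known from ionocytes and kidney intercalated cells, was not restricted to ionocyte-like cells in these libraries. In the iBC trachea it had 7.64 CPM in donor-derived cells, against 65.7 CPM in endogenous basal-like cells, 8.60-fold lower (6.33 to 11.9). Secretory-like cells had 6.53 and 69.7 CPM, 10.7-fold lower (8.01 to 14.5), and ciliated-like cells 16.3 and 150.1 CPM, 9.22-fold lower (7.01 to 12.3). A UMI was found in 14.1% of donor-derived against 74.2% of endogenous ciliated-like cells.

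For the primary BC trachea Atp6v1c2 had 138 and 196 CPM in basal-like, 92.9 and 92 CPM in secretory-like and 149 and 132 CPM in ciliated-like cells of the donor-derived and endogenous groups, with no class past the threshold. Hillock-like cells, a squamous-like state, had little of it: 0 UMIs in 8 donor-derived cells and 1 endogenous cell of the iBC trachea, and 6 UMIs in 34 donor-derived and 0 UMIs in 17 endogenous cells from the primary BC trachea. Pdia6, whose 3′ end overlaps Atp6v1c2 by 50 bases on the other strand, had 268 CPM in donor-derived cells, against 259 CPM in endogenous ciliated-like cells of the iBC trachea, 220 and 228 CPM in basal-like cells, and 186 and 170 CPM in secretory-like cells. Its values did not move with those of Atp6v1c2.

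Aqp3 (ENSMUSG00000028435, chromosome 4, 41092722 to 41098183, minus strand, protein coding) was highest in basal-like cells among the classes of at least 50 cells in each library. Basal-like cells of the iBC trachea had 208 CPM in donor-derived cells, against 714 CPM in endogenous cells, 3.43-fold lower (3.22 to 3.66), and 71.2% and 93.6% of them had a UMI. In secretory-like cells the values were 6.66 and 69.7 CPM, 10.5-fold lower (7.88 to 14.1). After primary BC transplantation basal-like cells had 1542 and 1792 CPM and secretory-like cells 286 and 282 CPM. The median basal score of secretory-like cells, 0.0468 in donor-derived and 0.0724 in endogenous cells of the iBC trachea, was low in both groups. The part of any basal admixture in the secretory-like values was not tested.

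Aqp3 was nearly absent from ciliated-like cells, with 6 UMIs in donor-derived and 2 in endogenous cells of the iBC trachea. Where primary BCs had been given, 46 and 7 UMIs were counted there, 17.6 and 1.90 CPM, but in 6 and 7 cells, with 19 UMIs in a single donor-derived cell. Hillock-like cells had 481 CPM in 8 donor-derived cells of the iBC trachea, and 1334 CPM in 34 donor-derived against 3000.5 CPM in 17 endogenous cells from the primary BC trachea.

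Aqp4 (ENSMUSG00000024411, chromosome 18, 15389496 to 15410982, minus strand, protein coding) was the most even of the aquaporins over classes and libraries. It had 229 CPM in donor-derived cells, against 332 CPM in endogenous basal-like cells of the iBC trachea, 277 and 199 CPM in secretory-like cells and 330.5 and 473 CPM in ciliated-like cells. None of these passed 1.5-fold by CPM, while under TMM scaling the basal-like and ciliated-like values counted as lower. In the primary BC trachea it had 335 and 442 CPM in basal-like, 304 and 261 CPM in secretory-like and 448 and 475 CPM in ciliated-like cells. At least 80.5% of the basal-like, of the secretory-like and of the ciliated-like cells of every library had an Aqp4 UMI. An antisense transcript overlaps the gene.

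Aqp5 (ENSMUSG00000044217, chromosome 15, 99590782 to 99594829, plus strand, protein coding) was higher in donor-derived secretory-like and ciliated-like cells of the iBC trachea. Secretory-like cells had 1207 CPM in donor-derived cells, against 418 CPM in endogenous cells, 2.89-fold higher (2.78 to 3.0) and 2.35-fold after TMM scaling. Ciliated-like cells had 159 and 51.1 CPM, 3.10-fold higher (2.65 to 3.65), with a UMI in 45.4% and 15.7% of cells. The part of free RNA in these ciliated-like values was not tested. Basal-like cells had 948 and 1110 CPM.

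For the primary BC trachea Aqp5 had 939 and 809 CPM in secretory-like, 162 and 132 CPM in ciliated-like and 1019 and 1007 CPM in basal-like cells of the donor-derived and endogenous groups. The endogenous secretory-like cells of the iBC trachea, at 418 CPM, were thus the lowest of the 4 libraries for this gene, and its donor-derived cells the highest. In endogenous cells of the primary BC trachea the ciliated-like level, 132 CPM, lay below that of immune-like cells, with overlapping intervals. Ciliated-like Aqp5 was thus not set apart from immune-like cells in that library. Hillock-like cells had 4447 CPM in 8 donor-derived cells of the iBC trachea, and 3048 CPM in 34 donor-derived against 4510 CPM in 17 endogenous cells from the primary BC trachea. Aqp3 and Aqp5 were found together in 70.7% of donor-derived against 92% of endogenous basal-like cells of the iBC trachea, and in 99.4% and 98.9% of those of the primary BC trachea.

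**Figure D5:**
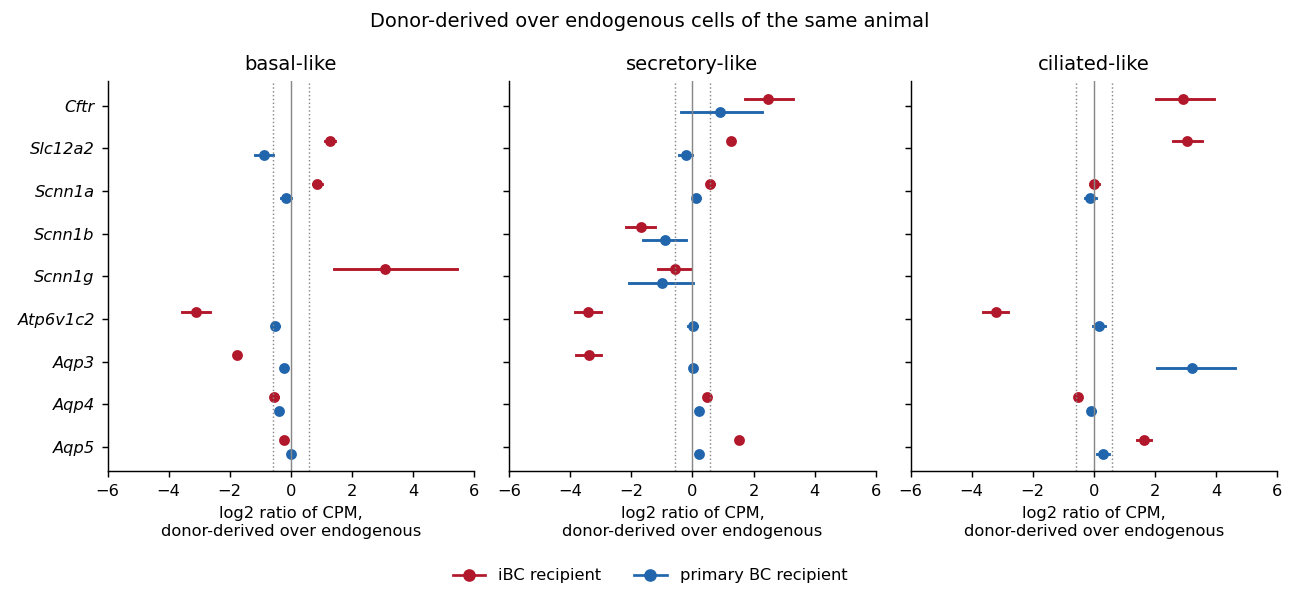
Log2 ratio of CPM, donor-derived over endogenous (horizontal axis), for 9 genes in 3 classes (basal-like, secretory-like, ciliated-like) of the iBC trachea (red) and the primary BC trachea (blue); bars are exact 95% intervals for counting error, dotted lines mark 1.5-fold and pairs with fewer than 20 UMIs are left out. Slc12a2 in basal-like cells lies above 0 in the iBC trachea and below 0 in the primary BC trachea.

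Secretory-like cells of the 2 groups of the iBC trachea also differed in glandular and goblet genes, which moved beside the transport genes. The 9 goblet and gland markers came to 3106 CPM in donor-derived cells, against 9949 CPM in endogenous cells, with 4 and 5 of the 9 detected and Lipf, Dcpp1, Dcpp2 and Dcpp3 at 0 in both. The 10 markers of distal lung, a region that shares Aqp5, came to 2011 and 1550 CPM in those cells, and to 619 and 1111 CPM in ciliated-like cells. After primary BC transplantation the goblet and gland sum of secretory-like cells was 11724 and 8489 CPM, and the distal lung sum 975 and 900.03 CPM. The part of these markers in the values of the members was not tested.

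The 7 lists of other genes of the pathway, 82 genes in all, gave the setting. In donor-derived cells of the iBC trachea 5 of 43 measured genes were higher and 7 lower in basal-like cells, 10 of 44 higher and 5 lower in secretory-like cells, and 4 of 40 higher and 5 lower in ciliated-like cells. The shares of all genes measured, higher and lower, were 10.9% and 6.11%, 22.8% and 5.63%, and 11.2% and 9.28% in these classes. Under TMM scaling the secretory-like count was 6 higher and 6 lower, where 9.91% and 9.10% of all genes were. Where primary BCs had been given, 2 of 41 were higher and 1 lower in basal-like cells, 0 of 46 moved in secretory-like and 0 of 38 in ciliated-like cells. Of all genes measured in these classes, 1.04% and 1.34%, 1.17% and 1.09%, and 1.5% and 1.37% were higher and lower. The counts of 0 lie near these shares. The median log2 ratio over the lists was -0.01, 0.35 and -0.06 in the 3 classes of the iBC trachea, beside the all-gene medians of 0.13, 0.30 and 0.09. Other aquaporins were under 20 CPM in every class.

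Of the 15 other chloride and cation-chloride genes, 3 were measured in secretory-like cells of the iBC trachea, and 2 of them were lower in donor-derived cells. Over all genes measured in that class, 22.8% were higher and 5.63% lower. The 2 lower genes, Ano1 and Clca1, reached 20 CPM only in the endogenous sum. Ano1, encoding the calcium-activated chloride channel TMEM16A, had 4.48 CPM in donor-derived cells, against 88.3 CPM in endogenous secretory-like cells, 19.7-fold lower, and Clca1, a secreted modulator of that channel made by goblet cells, had 3.46 and 76.7 CPM, 22.2-fold lower. Clcn3, an intracellular chloride-proton exchanger, had 55.7 and 56.0 CPM. In the primary BC trachea Ano1 had 136 and 130 CPM and Clca1 184 and 161 CPM in the same class. Cftr, the cyclic AMP-regulated route, had 10.4 and 1.87 CPM in these cells of the iBC trachea, in the opposite direction to Ano1.

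Sodium and bicarbonate genes moved both ways in the iBC trachea. Sgk1, a kinase that raises ENaC at the membrane, had 62.5 CPM in donor-derived cells, against 138 CPM in endogenous basal-like cells and 12.6 and 52.5 CPM in secretory-like cells. Slc4a4, a sodium-bicarbonate cotransporter, had 112 and 54.0 CPM in secretory-like cells, 2.08-fold higher (1.87 to 2.32). Car2, a cytosolic carbonic anhydrase, had 85.5 and 4.48 CPM in ciliated-like cells, and Atp1b1, the beta subunit of the sodium pump, 433 and 1003 CPM there. For the primary BC trachea Car2 had 16.4 and 22.2 CPM and Atp1b1 1060 and 1065 CPM in that class.

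Among the 18 other V-ATPase subunit genes, 13 to 15 were measured in each class of the iBC trachea. In donor-derived cells 1 was higher and 0 lower in basal-like, 2 higher and 1 lower in secretory-like and 0 higher and 2 lower in ciliated-like cells, beside the shares of all genes given above. Atp6v1b1, the B1 subunit that shares the kidney and ionocyte setting of Atp6v1c2, had 1.03 CPM in donor-derived cells, against 31.8 CPM in endogenous secretory-like cells of that animal. Its basal-like values were 0.159 CPM (1 UMI) in donor-derived cells, against 5.07 CPM (23 UMIs) in endogenous cells. Atp6v1a, the catalytic A subunit of the pump, was higher in donor-derived basal-like cells, at 96.2 CPM against 57.5 CPM in endogenous cells.

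Genes that varied most like each member over the 13 class-by-library sums of at least 50 cells were ranked by Pearson's r of log2 values. The sums share libraries, so r is a description. For Cftr these were Adtrp at 0.916, F830016B08Rik at 0.911 and Them6 at 0.891, over a range of Cftr that reached only 21.2 CPM. For Slc12a2 they were Ly6d at 0.965, Paqr8 at 0.942 and Ahr at 0.921. Atp6v1c2 was followed by Sobp at 0.982, Otx1 at 0.965 and Tbx1 at 0.965, and Aqp3 by Dapl1, a basal marker used in the gate, at 0.983, and Adgrg2 at 0.980. Scnn1a was nearest to Epb41l4b at 0.968, Coq7 at 0.951 and Fry at 0.949. Aqp4 was nearest to Cttn at 0.957, Baiap2l1 at 0.956 and Foxa1 at 0.956, and Aqp5 to Macc1 at 0.957, S100a14 at 0.956 and Met at 0.953. Scnn1b, Scnn1g and Foxi1 stayed under 20 CPM in these sums and were not ranked.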

How the data were processed

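UMI counts, 1 matrix per library, were taken as the authors deposited them. STARsolo, Seurat, Cell Ranger and the build GRCm38 are named, without versions or roles, per the submitters' processing notes; how barcodes were selected and whether counting used strand are not given in the sources used here. The lowest barcode totals were 2910 to 4296 UMIs, so no barcodes of very low totals were present.

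Barcodes with fewer than 500 genes or over 20% mitochondrial UMIs were removed, as were doublets called per library with Scrublet in scanpy 1.11.5 (0.568% of donor-derived against 2.38% of endogenous barcodes of the iBC trachea, 0.770% and 1.10% of those of the primary BC trachea). A marker score is the mean over a class's markers of log counts per 10000, each divided by its 99th percentile over all cells and limited to 1. Rare classes were assigned in the order immune, fibroblast, ionocyte, tuft, neuroendocrine, deuterosomal. The limits of the gate were set with the data at hand, and the genes, lists and markers were chosen with earlier results of these data known. Within a library, the UMIs of a class were added up and expressed as CPM. Log2 ratios used a pseudocount of 5 CPM and folds none. Calls were made where both libraries held 50 cells of a class or more; ionocyte-like cells were fewer and are described. Since each group is 1 library, there is no test and no p-value. Named from the pathway lists were genes at least 2-fold apart, with an interval bound at least 1.5-fold from 1 and at least 50 CPM in either sum; Atp6v1b1, Atp6v1a, Bsnd and Atp6v0b were added after their values were seen. For likeness, the 3 highest r per member were taken among genes with at least 20 CPM in 1 sum; 1 of them is not reported here. The ratio calculation was tested on simulated data. TMM factors came from edgeR 4.0.16. Positions are from GENCODE vM21, which held 30766 of the 30907 IDs, and promoters from RefSeq, GRCm38.p6.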

Additional observations from a re-analysis of the deposited data

Results flagged for a closer look

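Slc12a2 in basal-like cells differed in opposite directions in the 2 recipients. Its log2 ratio of donor-derived over endogenous cells was 1.23 in the iBC trachea, with 233 CPM in donor-derived cells, against 96.3 CPM in endogenous cells. In the primary BC trachea it was -0.74, with 21.8 CPM in donor-derived cells, against 39.8 CPM in endogenous cells. Each direction rests on 1 library per group, and the difference between the recipients was not tested. Donor cell kind, days, strain label and animal cannot be told apart.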

How the results depend on the processing

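The share of Cftr UMIs in ionocyte-like cells of the primary BC trachea stayed between 74.2% and 82.6% in donor-derived and between 85.5% and 90.4% in endogenous cells under each alternative that gave a value; clusters gave none, since no cluster was ionocyte-like. With the rare gate at 2 markers the ionocyte-like share in donor-derived cells of the iBC trachea was 5.74%. As a mean of per-cell CPM, the secretory-like share was 32.0% in donor-derived cells of the iBC trachea and 6.71% in those of the primary BC trachea, whose ionocyte-like share was 82.6%. At 2-fold, 1 member was higher in donor-derived basal-like cells of the iBC trachea and 0 were lower in those of the primary BC trachea. Under TMM 3 members were lower in donor-derived basal-like cells of the iBC trachea, against 2 by CPM. In secretory-like cells 2 were then higher, against 3, and in ciliated-like cells 2 were lower, against 1. The shares of all genes measured under TMM were 7.83% lower, 9.91% higher and 11.8% lower in these classes. With no filter on low values 1 was lower in secretory-like (Scnn1b) and 1 higher in ciliated-like (Aqp3) donor-derived cells of the primary BC trachea. In the iBC trachea 3 were then higher and 2 lower in basal-like, 4 higher and 3 lower in secretory-like and 4 higher and 1 lower in ciliated-like cells. The calls added without the filter were on genes under 20 CPM in both sums. Shares of all genes called at 2-fold or without the filter are not given here, so these counts have no background beside them. In ionocyte-like cells, leaving out the 2 donor-derived cells with high secretory or ciliated scores turned the Aqp4 ratio to 0.634 from 3.55 and the Aqp5 ratio to 0 (0 UMIs in donor-derived cells) from 9.07; the 23 Aqp5 UMIs lay in 1 cell. No call in the common classes changed direction under any alternative run. The secretory-like Scnn1a call of the iBC trachea was lost under TMM, the stricter gate, the looser gate, with doublets kept and as a mean of per-cell CPM. Of 120 shares of cells with a UMI, 92 moved on thinning to 4000 UMIs. No paired analysis was possible because each group held 1 library. Depth limits Cftr, Scnn1b, Scnn1g and Foxi1 most, with under 100 UMIs in each common-class sum except Scnn1b in endogenous secretory-like cells of the iBC trachea (187).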
